A study of Mus musculus with 4 samples.

Results

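Receptors for vascular endothelial growth factor (VEGF), their neuropilin co-receptors, the TIE receptors and endothelial surface and junction genes were examined as 1 group of 10 genes: Kdr, Flt1, Flt4, Nrp1, Nrp2, Tek, Tie1, Pecam1, Cdh5 and Arap3. The list was drawn up with earlier results of these data known, so its counts below are a description. All 10 genes were named on the array, by 17 of its 45141 probe sets and as 10 of 17097 named genes. A probe set is a group of array probes for 1 transcript. 5 of the genes had 1 probe set and 5 had several, and the one whose mean over the arrays was highest stands for such a gene unless another is named. Values are log2 expression values as deposited, so a difference of 1 is 2-fold. Levels are compared between arrays for a gene and, outside the summed marker levels, never between genes.

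The 4 arrays hybridised RNA from mouse embryonic stem cells of 2 genotypes, Snai1 knockout (KO) and control (F/F), that had formed embryoid bodies, clumps in which stem cells begin to differentiate, first in hanging drops and then in suspension. The clumps were taken apart at 4 days, and an antibody to Flk1, the protein made from Kdr, was used to sort the cells, which gave the groups KO Flk1+, F/F Flk1+, KO Flk1- and F/F Flk1- with 1 array each. The labels do not say how the Snai1 allele was deleted, whether the F/F cells carry any other allele or agent, or how many clones or cultures were used, and for KO Flk1- cells the description names 4 days and the source name 5 days. No difference below has a replicate check or a p-value, since none was tested, and the number of arrays limits the precision. In RNA from many cells, fewer cells of a type and less RNA per cell cannot be told apart.

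VEGF ligands bind receptor tyrosine kinases on endothelial cells and their progenitors, and neuropilins hold the ligand to the receptor. Kdr marks mesoderm with endothelial, blood and cardiac potential before vessels form, and mouse embryos without it form neither vessels nor blood islands. The TIE receptors act later, in vessel remodelling, and Cdh5 and Pecam1 build the contacts between endothelial cells. Snai1 is a transcriptional repressor known for its action on epithelial genes in the transition of epithelium to mesenchyme.

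A floor of 3.19, the 40th percentile of all named genes on all arrays, separated genes with signal from those without, and a fold against a value below it is given as a lower bound against the floor. All 10 genes were above it on at least 1 array and 8 were above it on all of them. The exceptions were Tie1 and Cdh5. Between 10195 and 10302 genes were above the floor on an array, and for the Gapdh controls, which report on RNA integrity, the 3' probe set exceeded the 5' one by 1.47 in KO Flk1+, 2.05 in F/F Flk1+, 1.99 in KO Flk1- and 1.76 in F/F Flk1- cells. Snai1 was at 1.88 in KO Flk1+, 2.56 in F/F Flk1+, 1.94 in KO Flk1- and 2.42 in F/F Flk1- cells. All of these values were below the floor, so the genotype labels could not be checked from them. As a measure of error without replicates, 2 probe sets of a gene differed in their KO minus F/F difference by a median of 0.19 in Flk1+ and 0.15 in Flk1- cells across 3490 genes, with a 95th percentile of 0.62 and 0.53. For Flk1+ minus Flk1- the median gap was 0.23 in KO and 0.16 in F/F cells, with a 95th percentile of 0.77 and 0.58. These gaps hold the error of probes and not that of cultures or sorts.

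**Figure D1:**
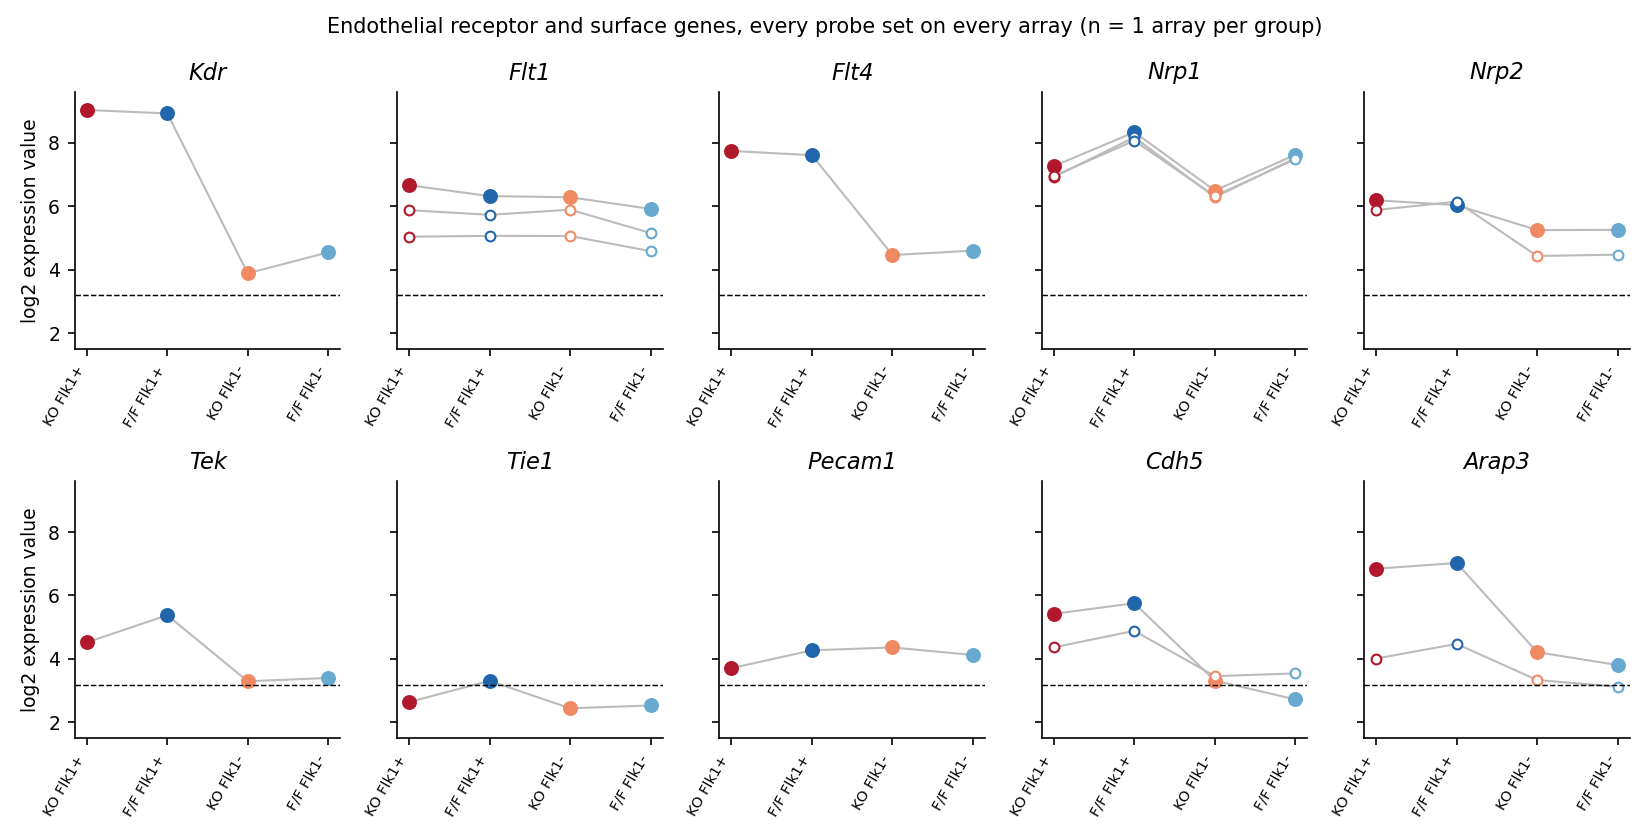
Log2 expression values (y axis) of the 10 genes on the 4 arrays (x axis, 1 array per group), with filled points for the probe set with the highest mean, open points for other probe sets and a dashed line at the floor of 3.19. Kdr, Flt4, Cdh5 and Arap3 stand high on both Flk1+ arrays, Nrp1 is lower on each KO array than on the F/F array of the same fraction, and Tie1 exceeds the floor only in F/F Flk1+ cells.

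The promoters of 4 genes are shown because their genes carry the differences described below: Kdr, Flt4 and Tek between the sorted fractions and Nrp1 between the genotypes. Each window runs from 250 bases before the gene's start to 50 after it, in RefSeq sequence of build GRCm38.p6, at chr5:75978406-75978705 on the minus strand, chr11:49609429-49609728 on the plus strand, chr4:94739039-94739338 on the plus strand and chr8:128358823-128359122 on the plus strand. Capitals mark matches on either strand to CAGGTG, the E-box that Snail proteins bind, CCGGAA, a core bound by ETS factors, and AGATAA, a core bound by GATA factors.
Kdr: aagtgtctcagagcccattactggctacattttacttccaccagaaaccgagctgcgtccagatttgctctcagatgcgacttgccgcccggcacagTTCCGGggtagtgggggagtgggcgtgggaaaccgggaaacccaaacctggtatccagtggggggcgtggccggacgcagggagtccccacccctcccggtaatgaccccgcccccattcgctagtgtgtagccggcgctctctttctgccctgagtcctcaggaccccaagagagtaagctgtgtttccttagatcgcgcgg
Flt4: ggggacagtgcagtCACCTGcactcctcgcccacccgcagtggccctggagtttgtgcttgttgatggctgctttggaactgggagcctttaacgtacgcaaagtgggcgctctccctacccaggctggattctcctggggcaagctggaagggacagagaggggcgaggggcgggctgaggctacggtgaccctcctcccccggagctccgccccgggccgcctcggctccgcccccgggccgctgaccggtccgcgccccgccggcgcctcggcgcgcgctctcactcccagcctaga
Tek: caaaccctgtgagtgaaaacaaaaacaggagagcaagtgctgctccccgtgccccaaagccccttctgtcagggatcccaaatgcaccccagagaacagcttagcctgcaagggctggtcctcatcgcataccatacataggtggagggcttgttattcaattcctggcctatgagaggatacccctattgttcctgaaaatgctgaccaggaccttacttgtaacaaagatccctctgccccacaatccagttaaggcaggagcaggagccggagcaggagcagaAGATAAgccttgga
Nrp1: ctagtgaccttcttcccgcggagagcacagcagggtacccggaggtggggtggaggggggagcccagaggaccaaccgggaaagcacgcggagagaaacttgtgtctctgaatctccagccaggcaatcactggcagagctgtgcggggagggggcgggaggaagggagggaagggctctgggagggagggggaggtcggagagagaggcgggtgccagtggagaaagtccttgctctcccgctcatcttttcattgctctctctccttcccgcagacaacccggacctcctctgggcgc
The Kdr window held the ETS core in reverse at its base 98, the Flt4 window held the E-box in reverse at base 15, and the Tek window held the GATA core at base 287, after the gene's start. The Nrp1 window held none of these letters. Of 7 member windows in the table, those of Nrp2, Tie1 and Flt1 included, 1 held each motif, against 20.2%, 14.9% and 11.2% of all 32851 windows of this length for the E-box, the ETS core and the GATA core. Such matches are a description of the letters and not of binding.

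Between the sorted fractions, the VEGF receptors Kdr and Flt4, the angiopoietin receptor Tek, the junction gene Cdh5 and Arap3 were higher in Flk1+ cells of both genotypes, by 2-fold or more in each. In KO cells 5 of the 9 members above the floor were 2-fold or more higher in Flk1+ cells, where 1.62% of all 10688 genes tested were, and in F/F cells 5 of 10 were, where 1.20% of 10622 genes were. The members' median difference was 1.23 in KO and 1.38 in F/F cells, beside medians of -0.08 and -0.01 over all genes tested. No member (0 of 9 and 0 of 10) was 2-fold lower in Flk1+ cells, a rule that 2.17% of all genes met in KO and 1.51% in F/F cells. Kdr is the gene of the sorted protein, so its difference describes the sort and supports nothing else. Without Kdr, 4 of 8 members in KO and 4 of 9 in F/F cells were 2-fold or more higher in Flk1+ cells, with medians of 1.08 and 0.78.

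Kdr was at 9.03 in KO Flk1+ and 3.88 in KO Flk1- cells, and at 8.92 in F/F Flk1+ and 4.55 in F/F Flk1- cells. It was 35.5-fold higher in Flk1+ cells in the KO and 20.8-fold in F/F, and ranked first among the genes tested in both. Flt4, the receptor for VEGF-C and VEGF-D that later marks lymphatic vessels, was at 7.74 in KO Flk1+ and 4.46 in KO Flk1- cells, and at 7.61 in F/F Flk1+ and 4.60 in F/F Flk1- cells. Its sort difference of 3.28 in the KO (9.72-fold) and 3.01 in F/F (8.05-fold) was the 11th and 13th largest among all genes tested. Both genes were high on each Flk1+ array and low on each Flk1- array.

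Flt1, the third receptor, binds VEGF-A with high affinity, and its soluble form traps the ligand. It was at 6.66 in KO Flk1+ and 6.28 in KO Flk1- cells, and at 6.32 in F/F Flk1+ and 5.92 in F/F Flk1- cells. Its whole range over the arrays was 0.75, against 5.15 for Kdr and 3.28 for Flt4. The sort difference was 0.38 in KO and 0.40 in F/F cells. Its other probe sets gave -0.01 and -0.02 in KO cells and 0.58 and 0.48 in F/F cells, so that in the KO only 1 of its 3 probe sets was higher in Flk1+ cells. The sources used here do not say which transcript form each probe set reads.

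The neuropilins, co-receptors for VEGF and secreted semaphorins, were also higher in Flk1+ cells, by less than 2-fold in the deposited values of the probe sets that stand for them. Nrp1 was higher by 0.77 in KO and 0.71 in F/F cells, with all 3 probe sets between 0.63 and 0.77 in the KO and between 0.58 and 0.71 in F/F. Nrp2 was at 6.19 in KO Flk1+ and 5.25 in KO Flk1- cells, and at 6.03 in F/F Flk1+ and 5.25 in F/F Flk1- cells. The difference was 0.94 in KO and 0.78 in F/F cells, and its second probe set gave 1.45 and 1.67, both over 2-fold. Under other scalings the KO difference of Nrp2 passed 2-fold too, at 1.10 after quantile normalization, 1.09 after centring and 1.11 after cyclic loess, while the F/F difference was 0.81 to 0.82.

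Tek, the receptor for angiopoietins, was at 4.52 in KO Flk1+ and 3.29 in KO Flk1- cells, and at 5.38 in F/F Flk1+ and 3.40 in F/F Flk1- cells. Both Flk1- values lay just above the floor. Tek was 2.34-fold higher in Flk1+ cells in the KO and 3.94-fold in F/F. Tie1, its partner receptor with no ligand of its own established, was at 2.64 in KO Flk1+, 3.31 in F/F Flk1+, 2.44 in KO Flk1- and 2.53 in F/F Flk1- cells. Only F/F Flk1+ cells exceeded the floor, and the sort difference there was at least 1.09-fold. In KO cells Tie1 was below the floor in both fractions, so no fold is given.

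Cdh5, the cadherin of endothelial junctions, was at 5.42 in KO Flk1+ and 3.32 in KO Flk1- cells, and at 5.76 in F/F Flk1+ and 2.72 in F/F Flk1- cells. It was 4.30-fold higher in Flk1+ cells in the KO and at least 5.91-fold in F/F, where the Flk1- value was below the floor. Its second probe set was higher by 0.91 in the KO and 1.34 in F/F. Arap3, a GTPase-activating protein for Arf6 and RhoA that acts downstream of PI3 kinase, was at 6.84 in KO Flk1+ and 4.21 in KO Flk1- cells, and at 7.02 in F/F Flk1+ and 3.81 in F/F Flk1- cells. The difference was 2.63 in the KO and 3.22 in F/F. These Arap3 values come from a probe set whose name ends in _s_at, a kind that can match more than 1 transcript, and the other probe set gave 0.68 and 1.35, so the 2-fold call in the KO rests on the first.

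Pecam1, an adhesion molecule of endothelial junctions that mouse embryonic stem cells also carry, did not follow the sort. It was at 3.71 in KO Flk1+ and 4.36 in KO Flk1- cells, and at 4.27 in F/F Flk1+ and 4.12 in F/F Flk1- cells. The sort difference was -0.65 in the KO and 0.15 in F/F cells. All of its values were above the floor and spanned 0.65, the narrowest range among the 10 genes. Of the 9 members above the floor in the KO sort comparison, Pecam1 was the only one lower in Flk1+ cells.

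**Figure D2:**
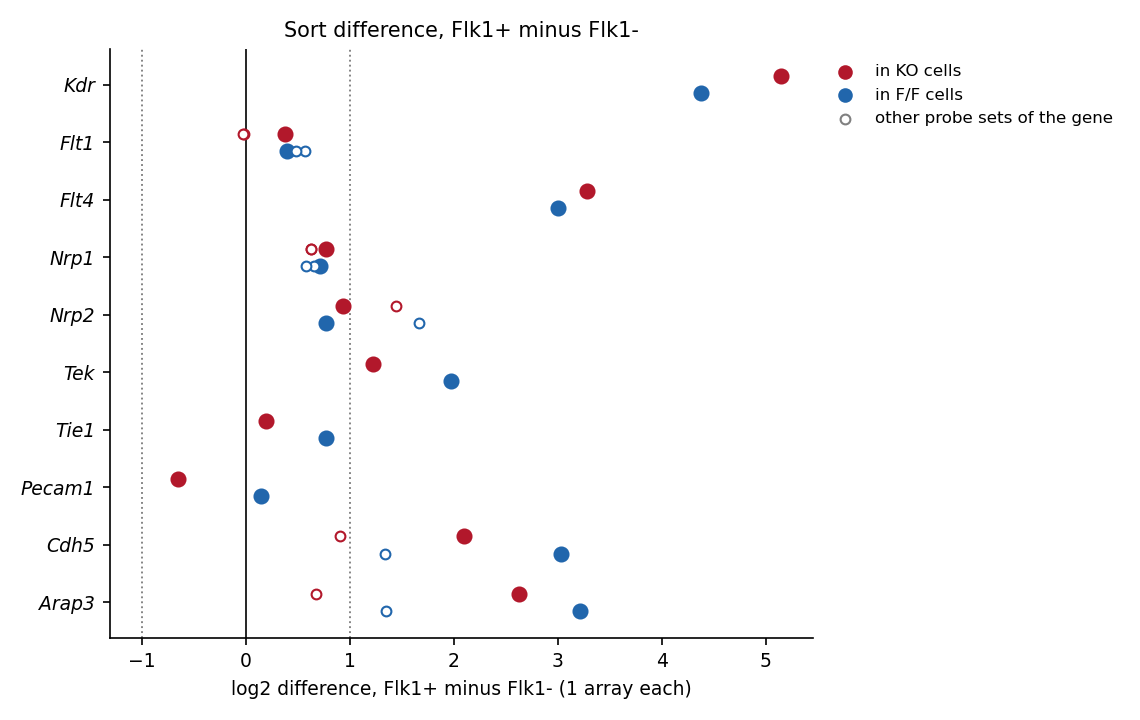
Log2 difference, Flk1+ minus Flk1- (x axis), for each gene in KO cells (red) and F/F cells (blue), with small open points for other probe sets and dotted lines at 2-fold. Kdr, Flt4, Tek, Cdh5 and Arap3 lie beyond the upper line in both genotypes, and Pecam1 in KO cells lies at -0.65.

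Between the genotypes, Nrp1 was the 1 member that was 2-fold or more apart, and it was lower in KO cells of both fractions. In Flk1+ cells 1 of 10 members was 2-fold or more lower in the KO, where 0.976% of all 10655 genes tested were, and in Flk1- cells 1 of 9 was, where 0.949% of 10533 were. None was 2-fold higher (0 of 10 and 0 of 9), a rule that 0.873% of all genes met in Flk1+ and 0.389% in Flk1- cells. The members' median difference was -0.26 in Flk1+ cells, with 4 positive and 6 negative, and -0.01 in Flk1- cells, with 4 positive and 5 negative, beside medians of -0.05 and 0.04 over all genes tested.

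Nrp1 was at 7.26 in KO Flk1+ cells, against 8.33 in F/F Flk1+ cells, and at 6.49 in KO Flk1- cells, against 7.62 in F/F Flk1- cells. It was thus lower in KO Flk1+ than in F/F Flk1- cells, although both sort comparisons had it higher in the Flk1+ fraction. The genotype difference was -1.07 in Flk1+ cells (2.10-fold lower) and -1.13 in Flk1- cells (2.19-fold lower), the 84th and 69th lowest among all genes tested. The other probe sets gave -1.26 and -1.11 in Flk1+ cells and -1.23 and -1.16 in Flk1- cells. These sizes exceed the 95th percentile of the probe set gap. In Flk1+ cells the value lay close to the 2-fold line, at -0.997 after quantile normalization and -0.991 after cyclic loess.

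The 3 VEGF receptors differed less between the genotypes within Flk1+ cells. Kdr, Flt1 and Flt4 had KO minus F/F differences of 0.11, 0.34 and 0.14 there. Kdr is the gene of the sorted protein, so its genotype differences within a sorted fraction are tied to the sort. In Flk1- cells Kdr was at 3.88 in KO against 4.55 in F/F cells, a difference of -0.66, and Flt4 differed by -0.14. Flt1 was higher in KO Flk1- cells by 0.37, and its other probe sets gave 0.74 and 0.48. In Flk1+ cells its other probe sets gave 0.15 and -0.03. Nrp2 differed by 0.16 in Flk1+ and -0.01 in Flk1- cells, and its second probe set by -0.26 and -0.04, so that in Flk1+ cells its 2 probe sets differed in sign.

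Tek, Tie1, Pecam1, Cdh5 and Arap3, grouped here after their values were seen, had negative differences in Flk1+ cells, none of them 2-fold. The other endothelial surface genes on a separate list did not share this sign, with 9 positive and 8 negative differences in the same comparison and a median of 0.04. The negative ones include Itga2b (-0.62), which is also a blood cell marker. Tek differed by -0.86 (1.81-fold lower), beyond the 95th percentile of the probe set gap, and Pecam1 by -0.56, within it. Cdh5 differed by -0.33 on 1 probe set and -0.52 on the other, and Arap3 by -0.18 and -0.46. Tie1 was at least 1.09-fold lower, since the KO value was below the floor. In Flk1- cells Tek differed by -0.10, while Pecam1, Cdh5 and Arap3 differed by 0.24, 0.59 and 0.40. The Cdh5 value there set 3.32 in KO against 2.72 in F/F cells, the second below the floor, so the bound is at least 1.09-fold higher, and its second probe set gave -0.08.

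**Figure D3:**
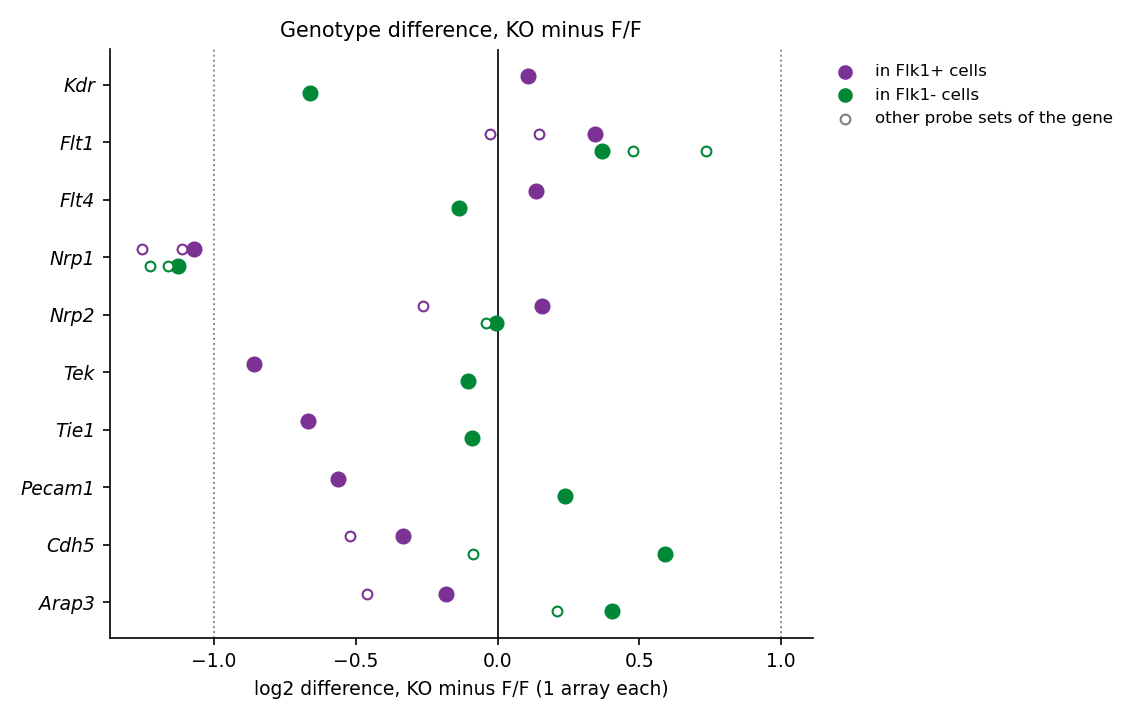
Log2 difference, KO minus F/F (x axis), for each gene in Flk1+ cells (purple) and Flk1- cells (green), with small open points for other probe sets and dotted lines at 2-fold. Nrp1 lies at -1.07 and -1.13 with its other probe sets beside it, and Tek lies at -0.86 in Flk1+ and -0.10 in Flk1- cells.

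The difference of differences, KO minus F/F in Flk1+ cells minus the same in Flk1- cells, was under 2-fold for all 10 members (0 of 10, against 1.58% of 10955 genes). It was -0.93 for Cdh5, -0.80 for Pecam1, -0.75 for Tek, -0.58 for Arap3 and -0.58 for Tie1, and 0.77 for Kdr, the gene of the sorted protein. When any value under the floor was raised to it, Cdh5 was at -0.46 and Tie1 at -0.12. For Nrp1 it was 0.06, with its probe sets from -0.03 to 0.06. Of these only the Cdh5 value exceeded 0.82, the 95th percentile of the probe set gap in this comparison, and the second Cdh5 probe set gave -0.44. Opposite signs in the fractions, each beyond the SD over silent receptor genes, were found for Pecam1, Cdh5 and Arap3, 3 of 9 members above the floor in both, and for 13.8% of 10233 genes. Under other scalings the Arap3 difference in Flk1+ cells was -0.12 to -0.10, within that SD. Without replicates, no difference between the fractions was tested.

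Markers of other cell types moved between the same arrays. In KO relative to F/F Flk1+ cells, 4 of 5 pluripotency markers above the floor were 2-fold or more higher (median 2.003), as were 4 of 7 epithelial markers (median 1.28), while 4 of 6 cardiac markers (median -2.17) and 4 of 7 mesenchymal and smooth muscle markers (median -1.54) were 2-fold or more lower. Of all 10655 genes tested in Flk1+ cells, 0.873% were 2-fold or more higher and 0.976% lower, with a median of -0.05. In Flk1- cells the marker medians were 0.74, 0.40, -2.81 and -1.18, beside 0.04 over all genes tested. The summed linear level of the 7 named pluripotency markers was 262 in KO Flk1+, 99.6 in F/F Flk1+, 1114 in KO Flk1- and 650.1 in F/F Flk1- cells. Of these markers 5 were above the floor in KO Flk1+, 4 in F/F Flk1+ and all 7 in each Flk1- group. The sums include the values below the floor. That of the 7 named mesenchymal markers was 816 in KO Flk1+, 1479 in F/F Flk1+, 378 in KO Flk1- and 772 in F/F Flk1- cells. For the 8 cardiac markers it was 315 in KO Flk1+, 1049 in F/F Flk1+, 173 in KO Flk1- and 845 in F/F Flk1- cells. Such sums rest most on the genes with the highest values. In F/F Flk1+ cells these were Vim (9.81) for the mesenchymal and Hand1 (9.25) for the cardiac sum. The summed level of the 6 named erythroid markers was 42.4 in KO Flk1+, 145 in F/F Flk1+, 41.6 in KO Flk1- and 2844 in F/F Flk1- cells. Ptprc, Spi1 and Myb, markers of blood cells, were below the floor on all arrays. Of the same list of 7, Itga2b, Runx1 and Cd44 were above it on all 4 arrays and Csf1r on 3. The part of these markers in the differences of Nrp1, Tek and Pecam1 was not tested.

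Other endothelial surface genes were in part higher in Flk1+ cells. Of 31 genes on the list, 18 were above the floor on at least 1 array. The 31 include Ptprc and Itga2b, which are blood cell markers too, and Itga2b is among the 18. In Flk1+ relative to Flk1- cells, 4 of 17 were 2-fold or more higher in the KO (1.62% of all genes) and 5 of 17 in F/F (1.20%). Their medians were 0.30 and 0.52. Many of the Flk1- values lay below the floor, and with those set to the floor 1 of 17 was 2-fold higher in the KO (1.42% of all genes) and 2 of 17 in F/F (1.05%). Egfl7, a secreted endothelial protein, was at 6.90 in KO Flk1+ and 5.31 in KO Flk1- cells, and at 6.76 in F/F Flk1+ and 5.50 in F/F Flk1- cells. Emcn, a sialomucin, was at least 1.72-fold higher in KO and 1.33-fold in F/F cells, and Esam, an adhesion molecule, at least 1.96-fold and 1.90-fold.

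Cd93, a lectin-like receptor of endothelial and early blood cells, stood apart from the other surface genes. It was at 3.98 in KO Flk1+ cells, against 5.94 in F/F Flk1+ cells, and at 2.54 in KO Flk1- cells, against 3.13 in F/F Flk1- cells. It was the 1 gene of the 17 with a 2-fold genotype difference in Flk1+ cells, -1.96, and none of 11 had one in Flk1- cells (0). Cd93 was not among those 11, since both of its Flk1- values were below the floor. Over all genes tested, 0.873% were 2-fold higher and 0.976% lower in Flk1+ cells, and 0.389% and 0.949% in Flk1- cells. The sort difference of Cd93 was at least 1.73-fold in the KO and at least 6.72-fold in F/F. Vwf, Sele, Robo4 and Stab2, genes of mature endothelium named here after their values were seen, were below the floor on all arrays. They do not speak for the list, of which 18 of 31 genes were above it on at least 1 array. Icam2 was above it on all 4 arrays, and Esam, Emcn, S1pr1, Cldn5 and Acvrl1 on both Flk1+ arrays.

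**Figure D4:**
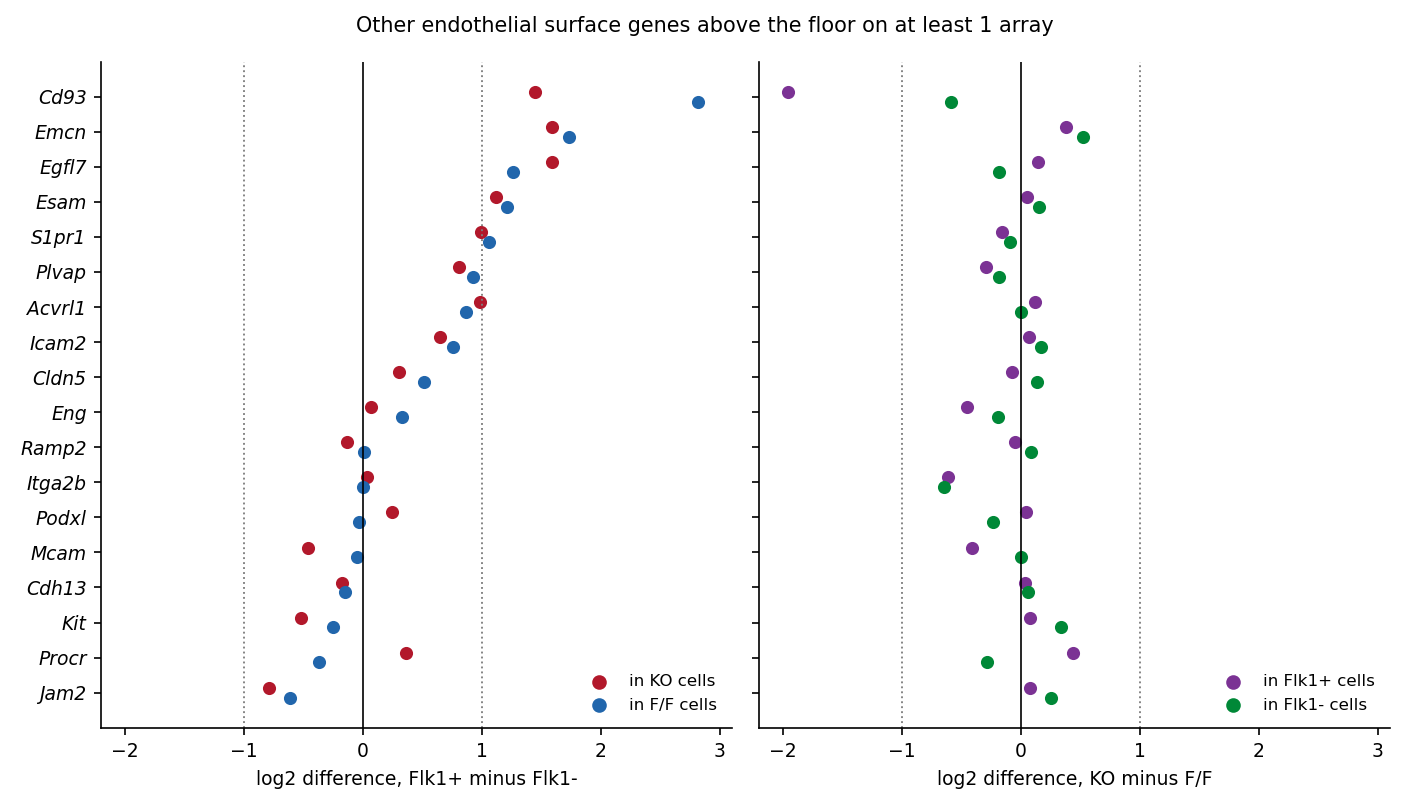
Log2 differences of 18 other endothelial surface genes above the floor on at least 1 array, Flk1+ minus Flk1- on the left (KO red, F/F blue) and KO minus F/F on the right (Flk1+ purple, Flk1- green), ordered by the F/F sort difference, with dotted lines at 2-fold. Deposited values are plotted, including those below the floor. Itga2b, also a blood cell marker, is among the genes. Cd93 has the one genotype difference beyond 2-fold, at -1.96.

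The ligands of the receptors differed by less than 2-fold. Of the 5 VEGF family ligands, 4 were above the floor on at least 1 array and none was 2-fold apart in any comparison (0). Over all genes tested, each 2-fold rule was met by 0.389% to 2.17%, so 0 of 4 is near the share of all genes. Vegfa, the main ligand of Kdr, was at 5.98 in KO Flk1+, 6.17 in F/F Flk1+, 6.52 in KO Flk1- and 6.56 in F/F Flk1- cells, so it was lower where Kdr was high. Vegfc, a ligand of Flt4, was at 3.17 in KO Flk1+, 3.83 in F/F Flk1+, 2.87 in KO Flk1- and 3.09 in F/F Flk1- cells and exceeded the floor in F/F Flk1+ cells alone. Pgf, a ligand of Flt1, was at 3.93 in KO Flk1+, 3.61 in F/F Flk1+, 2.99 in KO Flk1- and 3.44 in F/F Flk1- cells. Of the TIE ligands, Angpt1 and Angpt2 were below the floor on all arrays, and Angpt4 was above it on all 4, between 3.73 and 3.84.

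Among 20 named signalling genes downstream of VEGF receptors, Rhoj was at least 5.08-fold higher in KO Flk1+ cells and at least 5.56-fold higher in F/F Flk1+ cells than in their Flk1- cells. Its genotype differences were -0.13 and -0.16 in Flk1+ and Flk1- cells. Ptpn6, a phosphatase of blood cells, was at least 1.65-fold lower in KO Flk1+ than in KO Flk1- cells. None of these signalling genes was 2-fold apart between the genotypes (0 of 16 in Flk1+ and 0 of 15 in Flk1- cells). Among all genes tested, 0.873% were 2-fold higher and 0.976% lower in Flk1+ cells, and 0.389% and 0.949% in Flk1- cells. A count of 0 in so short a list is near those shares. Of 6 VEGF-responsive genes above the floor, 1, the nuclear receptor gene Nr4a1, was 2-fold higher in Flk1+ cells, by 1.11 in the KO and 1.04 in F/F. That rule was met by 1.62% of all genes in the KO and 1.20% in F/F. A response to VEGF was not tested. Rcan1, a calcineurin inhibitor, had KO minus F/F differences of 0.83 in Flk1+ and 0.15 in Flk1- cells. Adamts1, a secreted protease, differed by -0.94 and -0.90.

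Partners of the neuropilins included Plxnd1, a semaphorin receptor of endothelium, at 6.21 in KO Flk1+ and 4.23 in KO Flk1- cells, and at 5.94 in F/F Flk1+ and 4.67 in F/F Flk1- cells. Plxna2, another plexin, had sort differences of 0.93 in the KO and 0.75 in F/F. Sema3a, a secreted ligand of Nrp1, was at 6.31 in KO Flk1+ cells, against 5.21 in F/F Flk1+ cells, and at 4.68 in KO Flk1- cells, against 4.31 in F/F Flk1- cells. Its genotype difference of 1.10 in Flk1+ cells was thus opposite in sign to that of Nrp1, and it was 0.37 in Flk1- cells. The 8 genes named as junction partners of Cdh5, beta-catenin among them, were all under 2-fold in each comparison. Each 2-fold rule was met by 0.389% to 2.17% of all genes tested, so 0 of 8 is near that share. Arap1 and Arap2, paralogs of Arap3, had sort differences of 0.08 and -0.40 in the KO and 0.27 and -0.44 in F/F.

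Most of the endothelial transcription factors were higher in Flk1+ cells. In the KO 8 of 10 were 2-fold or more higher in that fraction (1.62% of all genes) and in F/F 8 of 10 were (1.20%). Their medians were 2.88 and 2.18. Only 4 of the 10 were above the floor on each Flk1- array, and with lower values set to the floor 7 were 2-fold higher in each genotype, where 1.42% of all genes were in the KO and 1.05% in F/F. Sox7 was the one that no longer met the rule, at least 1.16-fold higher in the KO and 1.31-fold in F/F. Within Flk1+ cells none of the 10 was 2-fold apart between the genotypes (0), with a median of -0.07. Among all genes tested there, 0.873% were 2-fold higher and 0.976% lower. Etv2, which initiates the endothelial and blood programme, was at 6.80 in KO Flk1+ cells, against 6.74 in F/F Flk1+ cells, and was at least 12.2-fold and 11.7-fold higher there than in the Flk1- cells of the same genotype. In Flk1- cells 2 of the 4 factors above the floor were 2-fold apart between the genotypes, 1 lower and 1 higher in the KO. Of all 10533 genes tested there, 0.949% were 2-fold lower and 0.389% higher. Lmo2, an adaptor of transcription factor complexes in blood and endothelial progenitors, was at 3.30 in KO Flk1- cells, against 5.26 in F/F Flk1- cells, a difference of -1.96, and its difference of differences was 1.68. Hhex, a homeobox gene of endothelial and endodermal progenitors, was higher by 1.06 in KO Flk1- cells.

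Likeness was the distance between log2 profiles centred over the 4 arrays, among 10954 other genes above the floor on at least 1 array. The genes most like Kdr were Fli1 (0.77), Hapln1 (0.93), Etv2 (1.03), Sox18 (1.20) and Rhoj (1.30). No gene (0) came within 0.5 of Kdr. The nearest to Flt4 were Hopx, Shank3 and Rapgef3, at 0.22 to 0.29, and 6 genes were within 0.5. Cdh5 was nearest to Ecscr, an endothelial surface protein, at 0.33, to Arap3 at 0.40 and to Fam43a at 0.67, and Arap3 was nearest to Cdh5, Flt4 and Ecscr. Tek was nearest to Ctla2b (0.11), Sema5a (0.14) and the basement membrane collagen gene Col4a2 (0.30). The distances used deposited values. Both Flk1- values of Fli1, Etv2, Sox18, Rhoj, Hopx, Shank3, Rapgef3 and Ctla2b were below the floor. Hapln1 was below it in KO Flk1- cells and Ecscr in F/F Flk1- cells. The likeness of these genes thus rests in part on values without signal. Each distance rests on 4 arrays, and these arrays are shared by all genes.

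Nrp1 was nearest to Prdm6 (0.06), Wnt5a (0.12) and Smarca2 (0.12), with 42 genes within 0.5. Prdm6, a transcriptional repressor gene, was at 5.38 in KO Flk1+ cells, against 6.47 in F/F Flk1+ cells, and at 4.59 in KO Flk1- cells, against 5.69 in F/F Flk1- cells. Wnt5a, a secreted Wnt ligand, was at 5.37 in KO against 6.28 in F/F Flk1+ cells, and at 4.53 in KO against 5.69 in F/F Flk1- cells. Nrp2 was nearest to Cacna2d2, Acvrl1, an endothelial receptor for BMP ligands, and Bcl6b, at 0.06 to 0.09. Acvrl1 was below the floor on both Flk1- arrays. Nrp2, Flt1, Tie1 and Pecam1, with ranges under 1, had 279, 2525, 1051 and 4593 genes within 0.5 of them. Their nearest genes, Cacna2d2, Ropn1l, Atp2a3 and Det1, were thus 1 of many close to them.

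**Figure D5:**
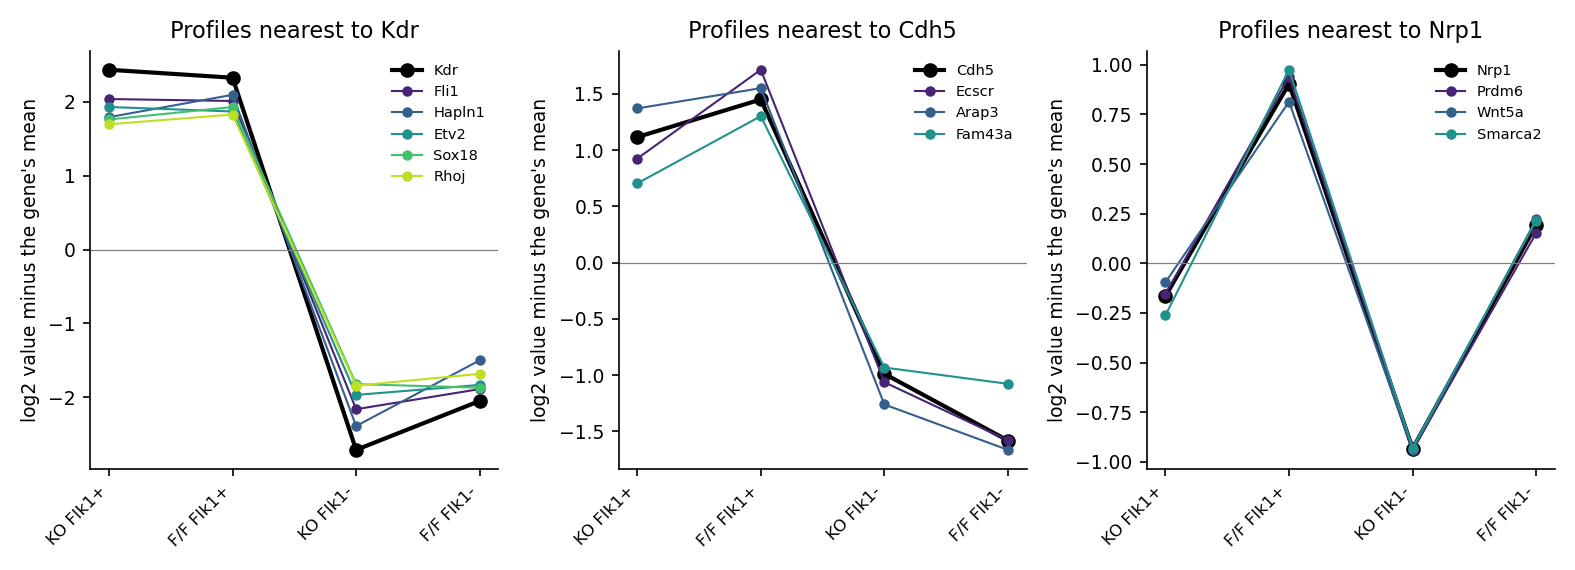
Log2 values minus each gene's mean over the arrays (y axis) on the 4 arrays (x axis, 1 array per group) for Kdr, Cdh5 and Nrp1 in black and the genes nearest to each in colour. The genes near Kdr and Cdh5 separate the Flk1+ from the Flk1- arrays, and those near Nrp1 are lower on each KO array than on the F/F array of the same fraction. Values below the floor are plotted as deposited.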

How the data were processed

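Expression was measured on 4 Affymetrix arrays of the PM type, 1 per group. The table the authors deposited holds log2 expression values of 45141 probe sets. The submitters' processing notes name RMA and limma, with no version or role. The values were used as deposited. Leaving out 104 control probe sets, 28898 probe sets were paired with 1 gene by the platform annotation, 551 with several genes, left unnamed, and 15588 with none. All 10 member symbols matched the reference gene table.

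The floor, the 2-fold rule, the gene lists and the nearest profiles by Euclidean distance were computed with Python 3.11.15, pandas 2.3.3 and numpy 2.4.6, and cyclic loess (span 0.3, 3 rounds) with limma 3.58.1. Named were all members, list genes with large differences above the floor and the nearest 5 profiles to Kdr and 3 to other members. The rule was tested on simulated data. Depth does not apply to arrays. Alternatives were scalings, probe set choice, floors and size rules. The members and lists were chosen with earlier results of these data known.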

Additional observations from a re-analysis of the deposited data

Results flagged for a closer look

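For 3 of the 9 members above the floor in both fractions, the KO minus F/F difference had opposite signs in Flk1+ and Flk1- cells and was larger in each than the SD over 77 silent receptor genes (0.15 in Flk1+ and 0.13 in Flk1- cells). Of 10233 genes, 13.8% met this rule. Pecam1 differed by -0.56 in Flk1+ and 0.24 in Flk1- cells. Cdh5 differed by -0.33 and 0.59, but the F/F Flk1- value was below the floor and its second probe set gave -0.52 and -0.08, so the opposite signs were not shared by its probe sets. Arap3 differed by -0.18 and 0.40, and its second probe set gave -0.46 and 0.21. Its Flk1+ difference was -0.10 after quantile normalization, -0.12 after centring and -0.10 after cyclic loess. Each of these was smaller than the SD of 0.15 found in the deposited values. Pecam1 also had sort differences of opposite sign, -0.65 in KO and 0.15 in F/F cells. With 1 array per group, none of these differences between fractions or genotypes was tested.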

How the results depend on the processing

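Without replicates no result has a p-value. A model adding genotype and fraction over the 4 arrays, which would pair the arrays and take the difference of differences as error, was not run. The 5 members 2-fold higher in Flk1+ cells numbered 4 to 6 in the KO and 5 to 6 in F/F over the scalings, probe set choices, floors and the 3-fold rule, and at the 1.5-fold rule 8 members passed in each, 7 higher and 1 lower in the KO and 8 higher in F/F. Between the genotypes in Flk1+ cells the count of 1 became 0 after quantile normalization, 0 after cyclic loess, 3 at the 1.5-fold rule and 0 at the 3-fold rule, since Nrp1 lay close to 2-fold. In Flk1- cells it became 3 at the 1.5-fold rule and 0 at the 3-fold rule, and the count of 0 for the difference of differences became 4 at the 1.5-fold rule. Nrp1 ranged from -1.15 to -0.99 in Flk1+ and from -1.19 to -1.13 in Flk1- cells over 6 alternatives. Leaving out probe sets ending in _s_at or _x_at and raising values to the floor did not change it. With the mean of its probe sets Nrp2 was at -0.05 for KO minus F/F in Flk1+ cells and 1.19 and 1.22 for the sort in KO and F/F cells. Without the probe sets ending in _s_at, Arap3 was at 0.68 and 1.35 for the sort. Centring on the median of genes above the floor moved the median of all genes for the KO sort from -0.08 to 0.07 and for the difference of differences from -0.07 to 0.05. It moved the split over all genes from 93 higher and 104 lower to 120 and 84 for the genotypes in Flk1+ cells, from 173 and 232 to 223 and 147 for the KO sort, and from 82 and 91 to 119 and 52 for the difference of differences, which was 103 and 73 with cyclic loess. No sign change occurred among differences of 2-fold or more (0).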
